A study of Mus musculus with 4 samples.

Results

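The genes described here are 39 endothelial genes, chosen by name because they mark or build the lining of blood and lymph vessels. A gene was read from the probe sets that the array annotation assigns to its symbol alone, and the brightest of these, by its mean over the 4 arrays, stood for the gene. All 39 were on the array, among 18193 genes named in this way.

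RNA came from 4 mammary tumours grown in nude mice, 1 Affymetrix mouse array to a tumour. Both groups began as Eph4 cells, an established mouse mammary epithelial line, transduced with ETV6-NTRK3 (EN), a fusion of a transcription factor gene with a receptor kinase gene. In the 2 Eph_EN tumours the cells carried the fusion alone. In the 2 Eph_EN_DN tumours they also expressed TAM67, a dominant negative c-Jun that blocks the AP-1 transcription factor. The fusion is therefore shared by both groups, and the comparison is of RNA between tumours that formed with and without TAM67. Not given in the sources used here are mouse strain and age, the promoters that drive the constructs and the clonality of the cells. The constructs were put into the Eph4 cells, whereas the vessels of a transplanted tumour are largely built by the host, and nude mice lack a thymus and so most T cells.

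Endothelial cells form the inner wall of vessels. They hold together through adherens and tight junctions, in which VE-cadherin and claudin 5 sit, and they respond to angiopoietins through the Tie receptor kinases. Their identity is maintained by ETS factors such as Erg and Fli1 and by SoxF factors. In tumours, new vessels sprout from those of the host tissue and are wrapped to varying degrees by pericytes.

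No endothelial gene passed the test, but most had lower values in the Eph_EN_DN tumours. Each difference is the Eph_EN_DN mean minus the Eph_EN mean of log2(intensity + 16), from 2 tumours a group (n = 2). The difference was negative in 32 of the 39 genes (82.1%), and 46.4% of all genes on the array had a negative one. The median was -0.30 over the 39 genes and 0.032 over all genes. The single genes ran from -0.88 (Angpt1) to 0.32 (Lyve1), so none reached a 2-fold difference on this scale. The added 16 shrinks differences of dim genes. With 1 added in place of 16, Angpt1 was at -1.08 and the dim Tie1 at -1.40. In limma's test, 31 of the 39 genes were kept by the filter on dim probe sets, and 0 of these 31 passed at a Benjamini-Hochberg adjusted p under 0.05. The share of all 13331 genes tested that passed was 0.555% (18 higher and 56 lower, or 7 and 48 with each array centred on its median). The lowest adjusted p among the endothelial genes was 0.226, for Mcam. At an unadjusted p under 0.05, 7 of the 31 were lower and 0 higher, where 4.94% of all genes tested were lower and 4.86% higher. These 7 were Cdh5, Eng, Mcam, Esam, Angpt1, Aplnr and Nos3. The count of 7 moved in both directions when single arrays were left out. A p that misses the threshold does not show that the groups were alike. In bulk tumour RNA, fewer endothelial cells, less RNA per endothelial cell and fewer of the other cells that express some of these genes cannot be told apart.

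**Figure D1:**
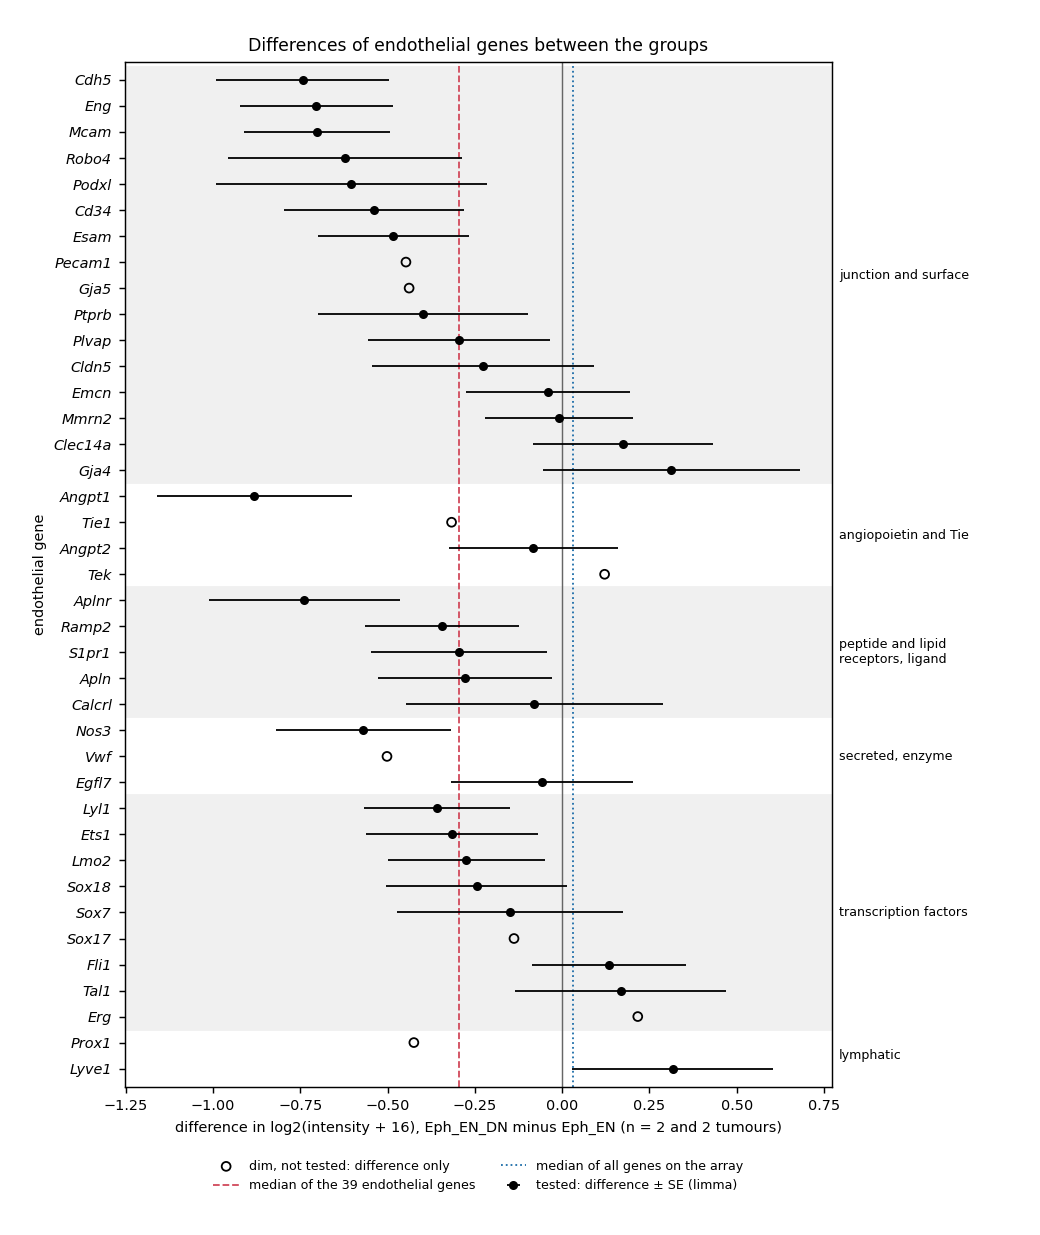
Difference of each endothelial gene in log2(intensity + 16), Eph_EN_DN minus Eph_EN (2 tumours a group). Filled points carry the standard error from limma, and open points are the 8 dim genes that were not tested. Most points lie left of 0, around the dashed median of -0.30, while the dotted median of all genes is at 0.032.

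In 18 of the 39 genes both Eph_EN_DN values lay below both Eph_EN values (46.2%), and this held for 18.1% of all genes on the array. The reverse held for 1 endothelial gene, Gja4, and for 20.2% of all genes. The Eph_EN tumours did not contribute evenly. Eph_EN tumour 2 had the highest value of the 4 tumours in 21 of the 39 genes (53.8%, against 28.8% of all genes). Eph_EN tumour 1 had it in 9 (23.1%, against 18.4%). The lowest value was that of Eph_EN_DN tumour 2 in 19 of the 39 genes and of Eph_EN_DN tumour 1 in 11. Over all 18193 genes these counts were 4273 and 4225. Relative to each gene's mean over the 4 tumours, the median endothelial gene stood at 0.047 in Eph_EN tumour 1, 0.26 in Eph_EN tumour 2, -0.15 in Eph_EN_DN tumour 1 and -0.20 in Eph_EN_DN tumour 2. For the median of all genes these values lay between -0.031 and 0.018. Without Eph_EN tumour 2 the median difference of the 39 genes was -0.21, with 26 negative, and without Eph_EN tumour 1 it was -0.39, with 30 negative.

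**Figure D2:**
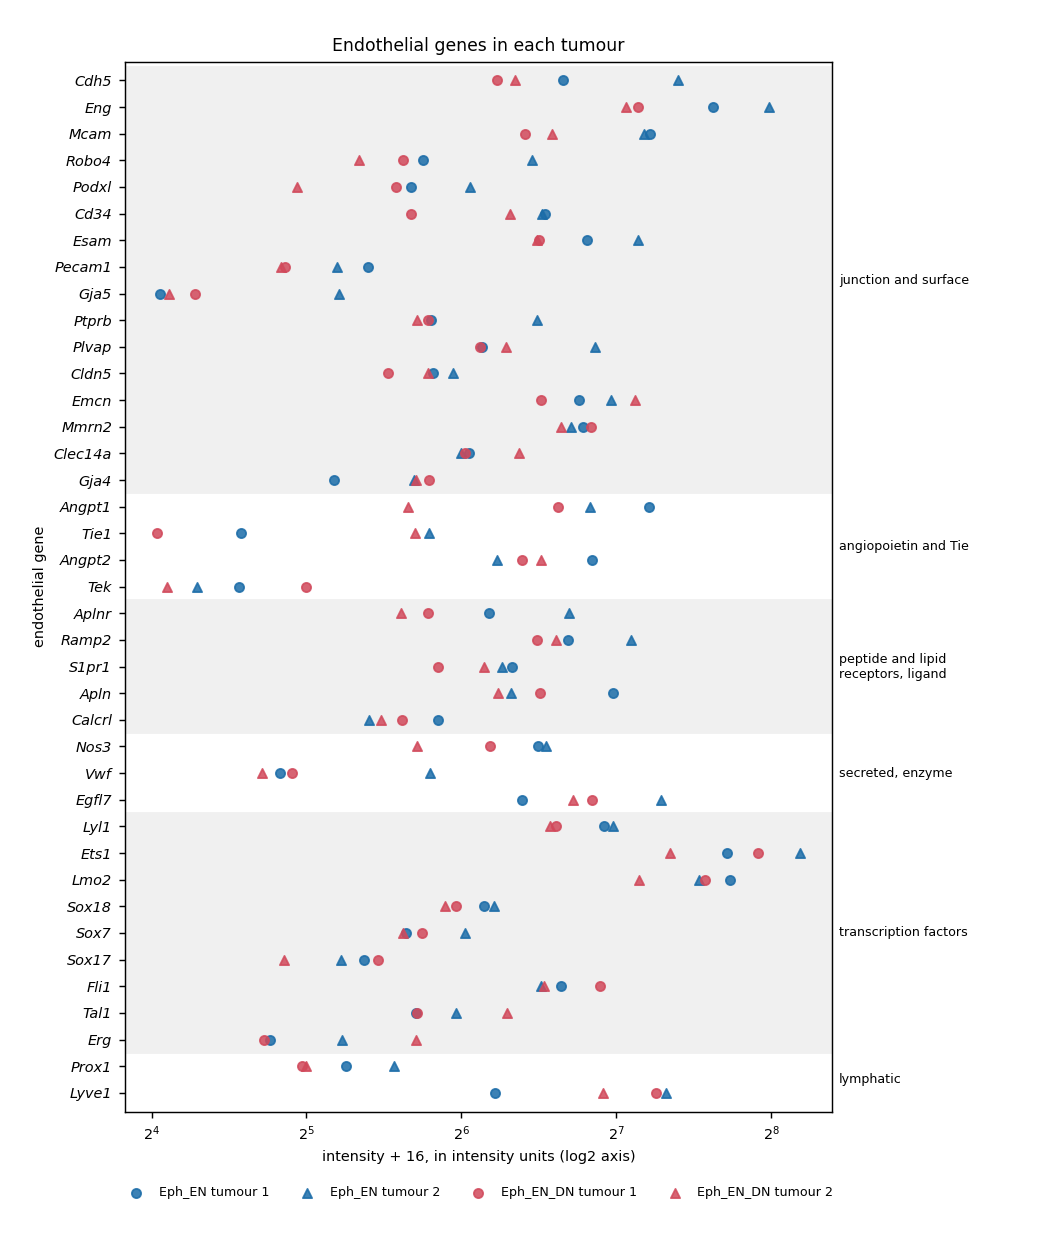
Intensity of each endothelial gene in the 4 tumours, plotted as intensity + 16 on a log2 axis and grouped by the role of the gene. Blue marks are Eph_EN and red marks Eph_EN_DN tumours, circles tumour 1 and triangles tumour 2. In 18 genes both red marks lie left of both blue marks, and in 21 genes the blue triangle is farthest right. Levels of different genes come from different probes and are not comparable.

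Many of the readings were low. The median intensity of an array was 35.6 to 40.8 units; 19 of the 39 genes read above it on all 4 arrays, 6 below it on all 4, and 14 on some arrays. The 8 genes left out of the test as dim were Pecam1, Tek, Tie1, Vwf, Gja5, Erg, Sox17 and Prox1, with values from 0.385 to 39.5 units. These include widely used endothelial markers, so the endothelial label of the tumour RNA rested on the other genes. No detection call was used, and whether the 8 genes were expressed was not measured. Measures of RNA quality did not overlap between the groups. The 3' to 5' ratio of Gapdh was 0.938 and 1.04 in Eph_EN and 1.17 and 1.11 in Eph_EN_DN tumours, and the mean 18S control signal was 5.43 and 6.40 against 6.76 and 7.43 on the log2 scale. Their part in the endothelial differences was not tested. The epithelial label was checked against 10 markers. The luminal keratin genes Krt8 and Krt18 read 1470 to 2048 and 683 to 1096 units, Epcam 226 to 307, Cldn3 225 to 267, Krt14 149 to 425 and Cdh1 89.5 to 134. The others were lower: Cldn4 at 40.6 to 113, Krt5 at 33.3 to 66.4 and Krt7 at 29.8 to 72.3 units, and Krt19, also a luminal keratin gene, was dim at 3.41 to 15.8.

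Junction and surface genes made up 16 of the 39, and 14 of them had negative differences, with a median of -0.44. None of the 14 that were tested passed. In 10 of the 16 both Eph_EN_DN values lay below both Eph_EN values (62.5%, against 18.1% of all genes). Cdh5, which encodes VE-cadherin of the adherens junction, read 84.9 and 153 units in the Eph_EN tumours and 59.0 and 65.2 in the Eph_EN_DN tumours. The groups did not overlap, and Eph_EN tumour 2 stood well above the other 3. The difference was -0.74 ± 0.25 (SE, limma adjusted p = 0.289). Without Eph_EN tumour 1 it was -1.12 and passed (adjusted p = 0.0179), without Eph_EN tumour 2 it was -0.37, and over all alternatives the adjusted p ran from 0.0179 to 0.781. Eng, endoglin, a co-receptor for TGF-beta and BMP ligands on endothelium, read 182 and 238 units against 125 and 118. The groups did not overlap, and the difference was -0.70 ± 0.22 (adjusted p = 0.251). Mcam, an adhesion molecule of endothelium that pericytes also carry, read 133 and 129 units against 69.0 and 79.9. The groups did not overlap, and both tumours of a group lay close together, at -0.70 ± 0.21 (adjusted p = 0.226).

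Esam, an adhesion molecule of endothelial tight junctions, read 96.5 and 125 units in Eph_EN and 74.4 and 73.9 in Eph_EN_DN tumours, at -0.48 ± 0.22 (limma adjusted p = 0.477). Robo4, a guidance receptor that stabilises vessels, read 37.9 and 71.9 units against 33.4 and 24.5. Eph_EN tumour 1 lay close to Eph_EN_DN tumour 1 there, and the difference was -0.62 ± 0.33 (adjusted p = 0.574). It was -0.27 without Eph_EN tumour 2 and -0.97 without Eph_EN tumour 1. Cd34, a sialomucin of endothelium, blood progenitors and some fibroblasts, read 77.2 and 75.8 units against 35.0 and 63.5. Eph_EN_DN tumour 1 was the low one, and the difference was -0.54 ± 0.26 (adjusted p = 0.517). Podxl, podocalyxin, differed by -0.60 ± 0.39, and Ptprb, the endothelial phosphatase VE-PTP, by -0.40 ± 0.30. The dim gene Pecam1, which encodes the junction protein CD31, read 26.2 and 20.6 units in Eph_EN and 13.1 and 12.5 in Eph_EN_DN tumours. Its groups did not overlap, and the difference of -0.45 became -0.81 with a pseudocount of 1 and -0.19 with one of 64.

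Apart from the dim Gja5, the other surface genes had smaller or opposite differences. Cldn5, the main claudin of endothelial tight junctions, read 40.3 and 45.7 units in Eph_EN and 30.0 and 39.1 in Eph_EN_DN tumours, which left a narrow gap between the groups (-0.23 ± 0.32). Plvap, which forms the diaphragms of fenestrae, read 54.3 and 101 units against 53.6 and 62.2. Its high value came from Eph_EN tumour 2 alone, and the groups overlapped. Emcn, endomucin, a sialomucin of capillaries and veins, read 92.2 and 109 units against 75.5 and 123, so that the Eph_EN_DN tumours were both the lowest and the highest (-0.042 ± 0.23, limma adjusted p = 0.976). Mmrn2, a matrix protein that binds Clec14a, was at -0.0092, and Clec14a itself at 0.17. The gap junction genes of arteries lay apart from each other. Gja4, connexin 37, read 20.3 and 35.7 units in Eph_EN and 39.4 and 36.2 in Eph_EN_DN tumours, a difference of 0.31 ± 0.37. Gja5, connexin 40, was dim at 0.609 to 21.1 units, with a difference of -0.44 and overlapping groups.

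The promoter windows of Eng, Mcam, Robo4 and Emcn are printed because the first 3 had the largest negative differences among genes with a window in the RefSeq promoter table (GRCm38.p6) and Emcn had overlapping groups. The table held windows for 18 of the 39 genes. Each run is the 250 bases before the start of the gene, 5′ to 3′ on the strand of the gene, at chr2:32646345-32646594, chr9:44134408-44134657, chr9:37401722-37401971 and chr3:137340828-137341077, all on the plus strand. Capitals mark matches, on either strand, to the AP-1 motif TGANTCA, the ETS motif AGGAAG or the cyclic AMP response element TGACGTCA, to which c-Jun can also bind and which was added after these windows had been seen. The motifs do not overlap each other in these windows.
Eng: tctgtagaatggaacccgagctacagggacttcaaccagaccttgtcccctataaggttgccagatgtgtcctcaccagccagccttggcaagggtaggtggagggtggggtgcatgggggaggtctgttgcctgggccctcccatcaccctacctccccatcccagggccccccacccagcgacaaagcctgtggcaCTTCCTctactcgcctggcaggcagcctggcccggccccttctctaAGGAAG
Mcam: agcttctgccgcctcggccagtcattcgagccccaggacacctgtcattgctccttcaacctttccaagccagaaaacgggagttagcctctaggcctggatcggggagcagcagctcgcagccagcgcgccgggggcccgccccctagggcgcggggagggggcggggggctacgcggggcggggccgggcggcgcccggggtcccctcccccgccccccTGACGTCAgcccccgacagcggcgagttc
Robo4: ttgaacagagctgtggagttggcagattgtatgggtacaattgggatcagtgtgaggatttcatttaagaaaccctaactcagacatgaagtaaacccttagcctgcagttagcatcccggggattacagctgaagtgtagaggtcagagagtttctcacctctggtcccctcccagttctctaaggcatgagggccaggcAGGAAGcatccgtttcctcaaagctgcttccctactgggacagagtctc
Emcn: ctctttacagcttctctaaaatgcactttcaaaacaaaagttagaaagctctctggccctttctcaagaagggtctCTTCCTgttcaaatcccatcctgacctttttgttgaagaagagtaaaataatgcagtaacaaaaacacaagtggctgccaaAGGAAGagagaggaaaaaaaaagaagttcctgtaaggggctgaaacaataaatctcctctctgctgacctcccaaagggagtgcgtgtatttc
The ETS motif occurred in 10 of the 18 genes, counting a gene with several windows as having it where any window did. By window it occurred in 11 of 24, and it occurred in 29.5% of all 32851 windows. The AP-1 motif occurred in 0 of the 24 windows of these genes and in 6.75% of all windows. The cyclic AMP response element occurred in 1, that of Mcam, and in 1.55% of all windows. Of the printed windows, those of Eng and Emcn hold 2 ETS matches each, though the 2 genes differed in their values, and Robo4 holds 1. A match is a string of letters and was not tested as a binding site.

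The angiopoietin and Tie genes held the endothelial list's most negative difference, in Angpt1, the Tie2 ligand that mural cells secrete and that stabilises vessels. Angpt1 read 132 and 97.6 units in Eph_EN and 82.5 and 34.4 in Eph_EN_DN tumours. The groups did not overlap, though the Eph_EN_DN tumours lay far apart, and the difference was -0.88 ± 0.28 (limma adjusted p = 0.264). It was -0.40 without Eph_EN_DN tumour 2 and -1.36 without Eph_EN_DN tumour 1 (adjusted p = 0.0518), and over all alternatives the adjusted p ran from 0.0518 to 0.839. With the 2 Angpt1 probe sets averaged it was -0.55, less negative than Mcam. Angpt2, the ligand that endothelial cells release during vessel remodelling, read 98.8 and 59.1 units against 68.0 and 75.5. The Eph_EN tumours lay on either side of both Eph_EN_DN tumours (-0.082 ± 0.24). The receptor genes were dim: Tek, which encodes Tie2, read 1.15 to 15.9 units, and Tie1 7.83 and 39.4 units in Eph_EN and 0.385 and 36.0 in Eph_EN_DN tumours. Tie1 was thus high in tumour 2 of each group, and no difference could be read from either receptor.

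All 5 genes of the apelin, adrenomedullin and sphingosine 1-phosphate systems had negative differences, with a median of -0.30, and none passed. Aplnr, the apelin receptor of sprouting and venous endothelium, read 56.3 and 87.4 units in Eph_EN and 39.1 and 32.8 in Eph_EN_DN tumours, at -0.74 ± 0.27 (limma adjusted p = 0.367). The groups did not overlap, and without Eph_EN tumour 2 the difference was -0.48. Apln, its ligand, which tip cells express, read 110.1 and 64.1 units against 75.2 and 59.4. Ligand and receptor differed in which Eph_EN tumour was higher, tumour 1 for Apln and tumour 2 for Aplnr, and Apln was at -0.28 ± 0.25. Ramp2, the accessory protein that makes Calcrl a receptor for adrenomedullin, read 87.3 and 121 units against 74.0 and 81.7 (-0.34 ± 0.22). Calcrl was at -0.080 ± 0.37, with overlapping groups. S1pr1, the sphingosine 1-phosphate receptor that limits sprouting, read 64.2 and 60.7 units against 41.6 and 54.9 (-0.30 ± 0.25), with both Eph_EN_DN tumours the lower.

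Of the secreted proteins and the enzyme, Nos3, endothelial nitric oxide synthase, had the most negative difference. It read 74.3 and 77.5 units in Eph_EN and 56.9 and 36.6 in Eph_EN_DN tumours, at -0.57 ± 0.25 (limma adjusted p = 0.466). The groups did not overlap, and without Eph_EN_DN tumour 2 the difference was -0.33. Egfl7, a matrix protein that endothelial cells secrete, read 67.8 and 140.2 units against 98.7 and 89.3, so the Eph_EN tumours enclosed the others (-0.058 ± 0.26). Vwf, von Willebrand factor, was dim, at 12.4 and 39.5 units against 14.1 and 10.2. Only Eph_EN tumour 2 stood out for Vwf, and without that tumour the difference of -0.50 was -0.018.

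The transcription factors had a median of -0.15 over 9 genes, 6 of them negative. None of the 7 tested passed, and 0 had an unadjusted p under 0.05. Lyl1, a basic helix-loop-helix factor of endothelium and blood cells, read 105 and 110.1 units in Eph_EN and 81.7 and 79.1 in Eph_EN_DN tumours (-0.36 ± 0.21, limma adjusted p = 0.611). Sox18, a SoxF factor of vessel identity, read 54.7 and 58.1 units against 46.6 and 43.6 (-0.25 ± 0.26). In these 2 of the 9 genes both Eph_EN_DN values lay below both Eph_EN values (22.2%, near the 18.1% of all genes on the array). The 7 others overlapped. Ets1, an ETS factor that lymphocytes also express, read 194 and 275 units against 226 and 147 (-0.32 ± 0.25). Its difference was -0.033 without Eph_EN_DN tumour 2 and -0.080 without Eph_EN tumour 2. Lmo2, a bridging partner of Tal1, read 197 and 170 units against 175 and 126 (-0.28 ± 0.22), and was at -0.061 without Eph_EN_DN tumour 2. Fli1 was at 0.13 ± 0.22 and Tal1 at 0.17 ± 0.30, both with their highest value in an Eph_EN_DN tumour. Sox7 was at -0.15 ± 0.32, and the dim Sox17 and Erg at -0.14 and 0.22. Lyl1, Lmo2, Fli1, Tal1 and Ets1 are also made by blood cells, and the summed leucocyte markers (5 genes) read 2104 and 1580 units in Eph_EN and 1420 and 1298 in Eph_EN_DN tumours. Their part in these values was not tested.

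The lymphatic genes gave no common direction. Lyve1, a hyaluronan receptor of lymphatic endothelium and some macrophages, read 58.3 and 144 units in Eph_EN and 137 and 105 in Eph_EN_DN tumours. Eph_EN tumour 1 was the low one, and the difference of 0.32 ± 0.29 (limma adjusted p = 0.766) was -0.24 without it. Mrc1, the mannose receptor of macrophages, was picked after its values were seen. It had its lowest value in Eph_EN tumour 1 as well (605 and 1298 units against 1442 and 698). Of the 10 macrophage markers it was the only 1 that was lowest there, and 8 were highest there. Prox1, the master factor of lymphatic fate, was dim, at 22.2 and 31.4 units against 15.4 and 15.98. Its groups did not overlap (-0.42), but its other probe sets, both dim, overlapped at -0.28 and 0.72, and the mean of the 3 was at 0.0044. Of 3 further lymphatic markers on the array, Flt4 was at -0.65, Pdpn at 0.089 and Reln at 0.45.

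Probe sets of the same gene often disagreed. The 39 genes had 66 probe sets, 18 genes had more than 1, and of the 27 probe sets other than the brightest 16 had a difference of the same sign and 11 of the opposite sign. Among the 14 of these that were kept by the filter, 8 had the same sign and 6 the opposite. The other Cdh5 probe set read 50.9 and 45.0 units in Eph_EN and 72.3 and 30.9 in Eph_EN_DN tumours, a difference of 0.012, so that the negative value of Cdh5 rested on 1 of its 2 probe sets. The other Eng probe set was at -0.34, with Eph_EN tumour 2 high at 93.6 units and the other 3 tumours at 43.7 to 58.3. The other Aplnr probe set was at -0.52, with groups that did not overlap (42.0 and 57.8 units against 27.1 and 32.4). For Ets1, a dimmer probe set read 88.2 and 137 units against 50.2 and 55.9, with a difference of -0.87 (limma adjusted p = 0.236 with every probe set tested separately). The groups were apart in that probe set and overlapped in the 3 others of Ets1. The other Angpt1 probe set was at -0.22, the other Angpt2 probe set at 0.49, and the other Lyve1 probe set at -0.36. Mcam, Esam, Robo4, Cd34 and Nos3 had a single probe set each.

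**Figure D3:**
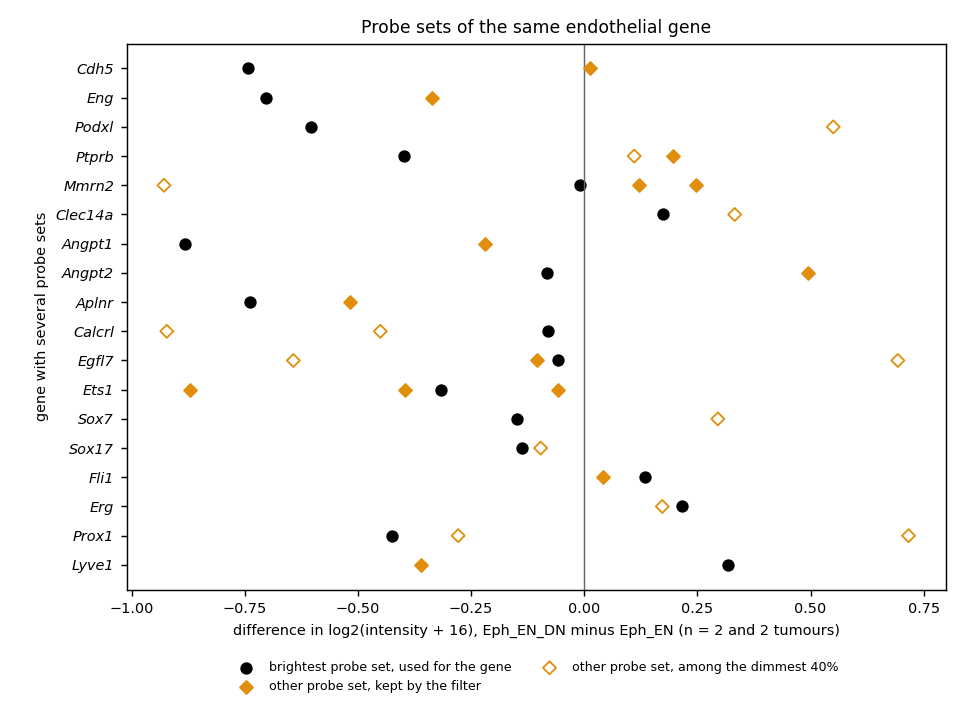
Difference in log2(intensity + 16), Eph_EN_DN minus Eph_EN (2 tumours a group), for the 18 endothelial genes with more than 1 probe set. Black points are the brightest probe set, filled diamonds other probe sets kept by the filter, and open diamonds dim ones. The probe sets of Aplnr and Eng lie on 1 side of 0, whereas those of Cdh5, Ptprb, Angpt2 and Lyve1 lie on both.

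In a longer list of vessel genes outside the 39 most differences were also negative. Of 71 such genes 69 were on the array, 50 of these had a negative difference, and the median was -0.15. It was -0.026 without Eph_EN_DN tumour 2. In limma's test 0 of the 53 kept by the filter passed at an adjusted p under 0.05, while at an unadjusted p under 0.05 there were 4 lower (7.55%, against 4.94% of all genes tested) and 1 higher (against 4.86%). In 18 of the 69 both Eph_EN_DN values lay below both Eph_EN values (26.1%, against 18.1% of all genes), and in 9 above (13.04%, against 20.2%). The difference between this list and the 39 genes was not tested. Vcam1, a leucocyte adhesion molecule of inflamed endothelium and some stromal cells, read 152 and 127 units in Eph_EN and 71.6 and 70.0 in Eph_EN_DN tumours, at -0.84 ± 0.21 (adjusted p = 0.114). Aqp1, a water channel of capillaries and red cells, read 207 and 246 units against 152 and 104 (-0.77 ± 0.23). Gimap4, a GTPase of lymphocytes and endothelium, was at -0.67 ± 0.21, and Gpihbp1, which holds lipoprotein lipase on capillaries, at -0.65 ± 0.21. In these 4 genes the groups did not overlap. The VEGF receptor genes Flt1 and Flt4 were at -0.70 ± 0.36 (-0.31 without Eph_EN tumour 2) and -0.65 ± 0.44 (-0.23 without Eph_EN_DN tumour 2), and the main VEGF receptor gene, Kdr, at -0.19 ± 0.21. The Notch ligand gene Jag1 was the 1 that was higher, at 104 and 75.5 units against 148 and 131 (0.57 ± 0.22, adjusted p = 0.393). Among dim genes, the scavenger receptor gene Stab2 was at -1.33 and Icam2, an adhesion molecule of resting endothelium, at -1.09, the only 2 of the 69 past a 2-fold difference. Jag1, Kdr, Stab2 and Icam2 were named after their values were seen.

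Markers of other host cells also differed between the tumours. For fibroblasts 9 of 10 markers had negative differences, with a summed intensity of 19109 and 25915 units in Eph_EN and 17059 and 14741 in Eph_EN_DN tumours. For macrophages 9 of 10 were negative, with sums of 18126 and 15259 against 12125 and 9641 units. The median difference was -0.60 for fibroblast, -0.49 for macrophage and -0.37 for leucocyte markers, each more negative than the -0.30 of the endothelial genes. Both Eph_EN_DN values lay below both Eph_EN values in 70%, 70% and 60% of these markers. This held for 46.2% of the endothelial genes and 18.1% of all genes. The differences between these lists were not tested. Like the endothelial genes, the fibroblast markers were highest in Eph_EN tumour 2 (8 of 10 markers, against 28.8% of all genes). The macrophage markers were highest in Eph_EN tumour 1 (8 of 10, against 18.4% of all genes). Pericyte and smooth muscle markers, the cells that wrap vessels, were negative in 6 of 11, with a median of -0.055 and sums of 1718 and 2033 against 1655 and 1526 units. The pericyte marker Rgs5 read 96.0 and 279 units in Eph_EN and 281 and 113 in Eph_EN_DN tumours, which follows neither group. Both Eph_EN_DN values lay below both Eph_EN values in 2 of the 11, Pdgfrb and Acta2 (18.2%, against 18.1% of all genes). They lay above in 2 others, Des and Abcc9 (18.2%, against 20.2%). Adipocyte markers were positive in 7 of 7, with sums of 447 and 312 against 833 and 4102 units. Fabp4 alone read 2825 units in Eph_EN_DN tumour 2. Of the 5 tested, Fabp4, Adipoq and Retn passed as higher (limma adjusted p = 0.0217, 0.0485 and 0.0481), where 0.555% of all genes tested passed. Eph_EN_DN tumour 2 stood far above Eph_EN_DN tumour 1 in each (2825 against 559 units for Fabp4, 824 against 128 for Adipoq, 265 against 81.2 for Retn). Whether these calls held under the alternatives was not examined. Eph_EN_DN tumour 2, which had the lowest value of 19 endothelial genes, was thus the tumour with the most adipocyte signal. Platelet markers, which share Vwf with endothelium, were positive in 5 of 6 (465 and 728 against 689 and 645 units), and red cell markers in 2 of 4 (137 and 119 against 135 and 100.3 units). Epithelial markers were negative in 5 of 10, with sums of 3735 and 3994 against 3178 and 3434 units. No marker on these lists was at 0 on any array. The part of these cells in the endothelial differences was not tested.

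**Figure D4:**
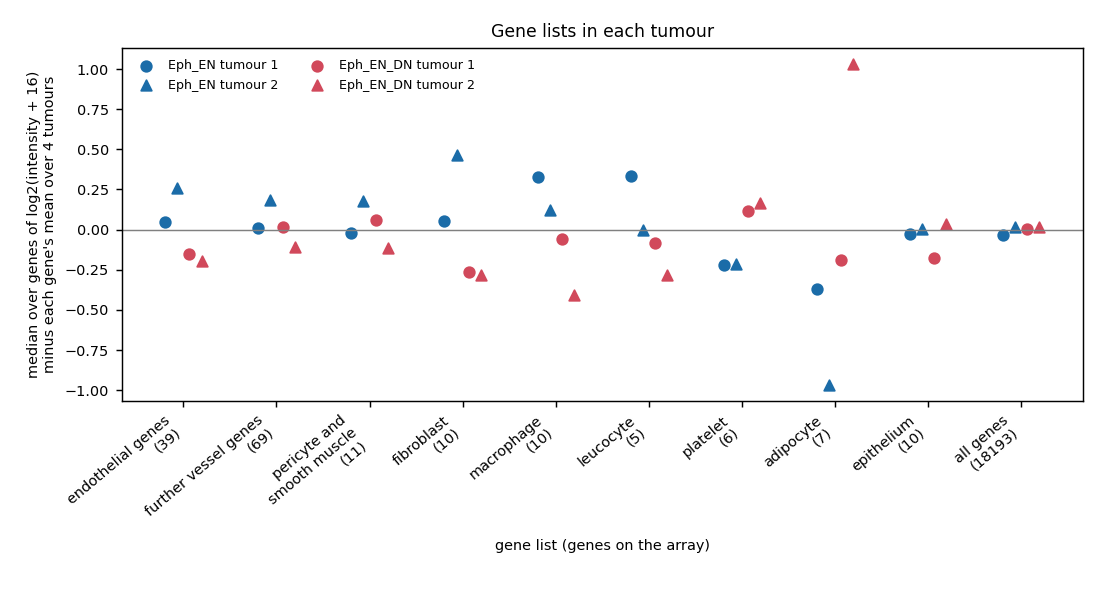
Median over the genes of a list of log2(intensity + 16) minus each gene's mean over the 4 tumours, with the number of genes on the array in brackets. Blue marks are Eph_EN and red marks Eph_EN_DN tumours, circles tumour 1 and triangles tumour 2. For endothelial genes both red marks (-0.15 and -0.20) lie below both blue marks (0.047 and 0.26). The same holds for fibroblast, macrophage and leucocyte markers and not for pericyte and smooth muscle markers. Nor does it hold for the further vessel genes, with red marks at 0.015 and -0.11 and blue marks at 0.012 and 0.18.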

How the data were processed

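The table that the authors deposited gives 45101 probe sets a linear intensity on every one of 4 arrays. Per the labels, Trizol RNA was cleaned on columns and labelled as biotin cRNA. Summarising of probes, background correction and scaling are not given in the sources used here. Apart from the tumour number nothing in the labels ties a tumour to an animal or culture, so p-values reflect no more than the spread among these samples, possibly technical; precision is limited by the number of arrays.

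Names of probe sets came from the platform annotation (34945 with 1 symbol, 932 with several, 9160 with none) and a RefSeq table of GRCm38.p6, which changed 0 symbols. The log2 of the intensity plus 16 was tested with limma 3.58.1 in R 4.3.3 (lmFit, two-sided, eBayes with trend on intensity, adjusted by Benjamini-Hochberg over 13331 genes), after the dimmest 40% of probe sets were left out, with 1 probe set for each gene. The fit was tested on simulated data. Medians and signs of a list are over all its genes on the array, without that filter. Each sum of a marker list adds the intensities of its genes.

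The members and lists were chosen with earlier results of these data known. Values in every tumour are printed for members past the threshold, for up to 4 members of each role with the largest difference among those tested, and for Pecam1, Cdh5, Tek, Tie1, Vwf, Emcn, Cldn5, Lyve1 and Prox1. Of the further vessel genes the 6 with the largest difference among those tested were named. Other genes were named after their values were seen. Of 183 symbols on the lists, 10 had no probe set named with them alone and were not analysed here. Alternatives were other filters, quantile normalization, median centring, pseudocounts of 1 and 64, other uses of a gene's probe sets, other variance models, the tumour number as a block, each array left out, and an adjusted p threshold of 0.10. Plots were drawn with matplotlib 3.10.9.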

Additional observations from a re-analysis of the deposited data

How the results depend on the processing

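The 2 tumours in each group and the dimness of many probe sets limited what the test could show. The count of 0 endothelial genes past the threshold held in every alternative other than the one without Eph_EN tumour 1, where Cdh5 passed (range 0 to 1 with an array left out); when an array was left out, the spread of the lone tumour was taken to be that of the other group. With all 4 arrays kept, the count lower at an unadjusted p under 0.05 in limma ran from 5 (no filter on dim probe sets, 39 genes tested) to 9 (median centring). The share of all genes tested that were lower moved too, to 4.06% and 8.03% in these settings from 4.94%. With an array left out, both this count and this share moved in both directions. The median difference of the 39 genes was negative in every alternative, at -0.39 to -0.21 with an array left out. It was -0.39 with median centring, -0.35 with quantile normalization and -0.19 with a pseudocount of 64, which shrinks differences of dim genes by construction. Over all genes tested the median fell as well, from 0.019 to -0.080 with median centring and to -0.014 with quantile normalization. The median of the further vessel genes was -0.23 to -0.026 with an array left out. In those fits the brightest probe set of a gene was chosen again over the arrays left. For Egfl7 the choice changed, so its range below does not come from a single probe set. Among the genes chosen by the naming rule, signs turned with a gene's probe sets averaged for Angpt2 (0.21), Lyve1 (-0.022) and Prox1 (0.0044), with a pseudocount of 1 for Tek (-0.060), and with an array left out for Angpt2 (-0.39 to 0.22), Apln (-0.61 to 0.049), Egfl7 (-0.51 to 0.082), Lyve1 (-0.24 to 0.87), Emcn (-0.34 to 0.26), Tie1 (-1.15 to 0.52) and Tek (-0.33 to 0.57); the cause was not tested.

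Nothing in the labels ties equal tumour numbers together, and the differences between tumours 1 and 2 of the groups correlated at -0.065 across genes tested. With the tumour number as a replicate block, 0 endothelial genes and 0 further vessel genes passed. At an unadjusted p under 0.05 in limma, 7 endothelial genes were lower with that block, as without it, and 4.16% of all genes tested. Over all genes the 74 calls became 11 with that block, 5 without the intensity trend, 38 with quantile normalization, 35 with probe sets averaged, and 22 to 151 with an array left out.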
